A study of Bos taurus with 10 samples.

Results

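The genes described here are the extracellular proteases of the matrix metalloproteinase (MMP), ADAM and ADAMTS families, the plasminogen activators *PLAU* and *PLAT* with the receptor *PLAUR*, and the inhibitors of the TIMP and serpin families. They were chosen by gene symbol, together with a mean of at least 1 normalized read count over the embryos. The rule itself uses no difference between groups, but the families were picked with earlier results of these data known. Since the mean is over both groups, a gene almost without reads in WT can reach it through the *SOX2* KO embryos alone. *MMP19*, *ADAMTS10*, *ADAMTS15*, *ADAMTS16* and *ADAM23*, among others, had a WT mean under 1, and *SERPINB2* was at 0 in every WT embryo. The same minimum held for all tested genes. Of 20112 genes in the table, 78 matched, and all 78 reached the minimum mean. The 3 lowest were *SERPINA7* (mean 1.17), *SERPINA11* (1.21) and *MMP1* (1.23), and no matching gene lay outside it. RNA-seq had been done on 10 single bovine early blastocysts, 5 per group, produced by in vitro fertilization. The 5 WT embryos received mRNA of BE3, a cytosine base editor that makes C-to-T changes, at the zygote stage. In the 5 *SOX2* KO embryos a mixture of sgRNAs was injected along with that mRNA, designed to write premature stop codons into *SOX2*, a transcription factor gene of the inner cell mass. WT embryos were thus injected and exposed to the editor as well, but not to a guide. The labels give an age of 7.0 days after fertilization for every embryo, while the study's methods give a slightly later time. Each library was made from 1 whole embryo after the zona pellucida had been removed with a protease, so trophectoderm and inner cell mass were read together. Embryos are named by their columns, nc1 to nc5 for WT and ko1 to ko5 for *SOX2* KO.

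Extracellular proteases cut matrix proteins, growth factors and membrane receptors outside the cell. MMPs, ADAMs and ADAMTSs hold a zinc ion in the active site and are made as inactive precursors, many of which are opened by the convertase furin. Urokinase (*PLAU*) and tissue plasminogen activator (*PLAT*) turn plasminogen into plasmin, a protease that cuts fibrin and can open MMP precursors. TIMPs block MMPs and some ADAMs, whereas most inhibitory serpins trap serine proteases such as urokinase and plasmin. In the blastocyst, the trophectoderm is the outer layer that later meets the uterus, and trophoblast cells are known for secreting plasminogen activators, MMPs and TIMPs.

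Reads on genes, recovered from the normalized values, numbered 2223670 to 5134855 for WT and 2578284 to 4337342 for *SOX2* KO embryos. The 18S rRNA gene *RN18S1* held between 26.4% and 37.0% of a WT library and between 32.5% and 45.0% of a *SOX2* KO library. *SOX2* itself ranged over 56.5 to 93.4 normalized read counts in WT and over 26.4 to 82.1 in *SOX2* KO embryos, and its log2 fold change of -0.55 (SE 0.27, limma adjusted p = 0.167) did not pass. A stop codon need not lower the mRNA, so this value does not check the labels. The trophectoderm markers *KRT8*, *KRT18* and *GATA3* were read in every embryo. By the thresholds given below, 5 of 8 epiblast markers were called lower in *SOX2* KO, beside 1.16% of all tested genes. *POU5F1* was lower at the adjusted p alone (-0.75, limma adjusted p = 0.00631). Of 6 tested primitive endoderm markers 2 were called lower (*PDGFRA* and *HNF4A*). *GATA4*, *GATA6*, *FOXA2* and *RSPO3*, at -0.24, -0.12, 1.53 and 0.64, did not pass. Of 10 trophectoderm markers 1 was called higher (*ELF3*), beside 8.93% of all tested genes. At the adjusted p alone *KRT18* was higher (0.73, limma adjusted p = 0.0394) and *TFAP2C* lower (-0.49, limma adjusted p = 0.0352).

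Among the 78 genes, 11 were higher and 0 were lower in *SOX2* KO than in WT embryos. A gene was called higher or lower where the limma test over all 20056 genes at or above a mean of 1 gave a Benjamini-Hochberg adjusted p no greater than 0.05 together with a fold change of 2 or more, or of 0.5 or less. The 11 genes are 14.1% of the 78, beside 8.93% of all tested genes called higher and 1.16% called lower. No gene of the 78 was lower at an unadjusted p under 0.05 either, beside 8.37% of all tested genes, and DESeq2 and edgeR on the recovered reads also called 0 lower. Without the threshold on the fold change 13 passed as higher and 0 as lower (10.4% and 3.20% of all tested genes), the added ones being *MMP15* and *TIMP2*. In 8 genes every *SOX2* KO embryo was above every WT embryo, beside 6.41% of all tested genes, and in 0 genes every one was below, beside 2.76%. The estimate was above 0 for 67 of the 78 genes, beside 62.9% of all tested genes, and the median log2 fold change was 0.86 beside 0.25. *SERPINB2* had no read in WT, and its estimate of 1.16 was already above the median. Putting it at the higher bound that 3 reads over the WT embryos allow (2.38) therefore could not move the median. Log2 fold changes are of the normalized read count + 1, a scale on which genes with few reads show less than their true change. In single whole embryos, fewer cells of a type and less RNA per cell cannot be told apart.

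**Figure D1:**
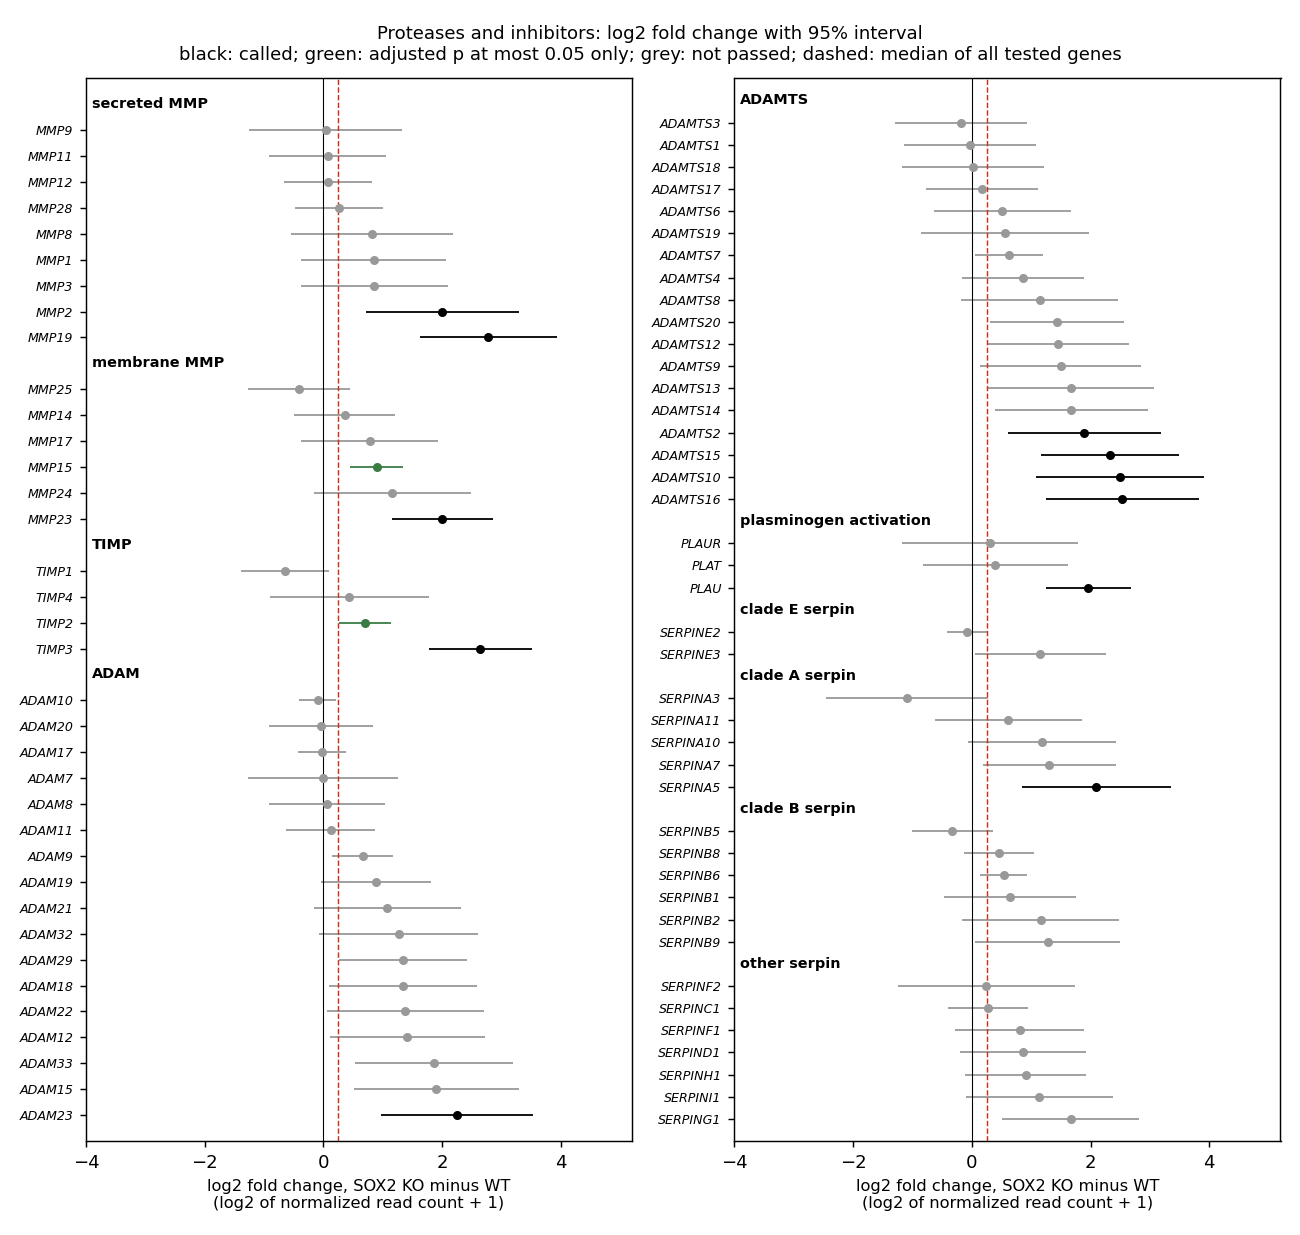
Log2 fold change of 77 of the 78 genes (points, x axis, *SOX2* KO minus WT, of the normalized read count + 1) with 95% limma intervals (bars), by family. The 11 called genes are black, *MMP15* and *TIMP2*, which passed the adjusted p alone, are green, and the dashed line is the median of all tested genes, 0.25.

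Most of these genes had few reads, and the background has to be read at the same level. Of the 48 genes whose mean was under 10, 8 were called higher (16.7%), beside 14.1% of all tested genes of that level called higher and 0.195% called lower, and their median log2 fold change was 1.18 beside 0.93. Of the 22 genes between 10 and 100, *TIMP3* and *MMP23* were called (9.09%), beside 6.76% higher and 2.27% lower, and the median was 0.27 beside 0.037. Of the 8 genes at 100 or more, *PLAU* was called (12.5%), beside 2.29% higher and 1.34% lower, and the median was 0.23 beside -0.11. At the lower 2 levels the share called was thus near its background, and at the highest it rests on 1 gene. The protease families and plasminogen activators held 9 of the 11 called genes among 52 (17.3%), and the inhibitor families held 2 among 25 (8%), with the receptor *PLAUR* in neither. Beside these stand 8.93% of all tested genes and 14.1% of those with a mean under 10, so no difference between proteases and inhibitors is read from the counts.

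**Figure D2:**
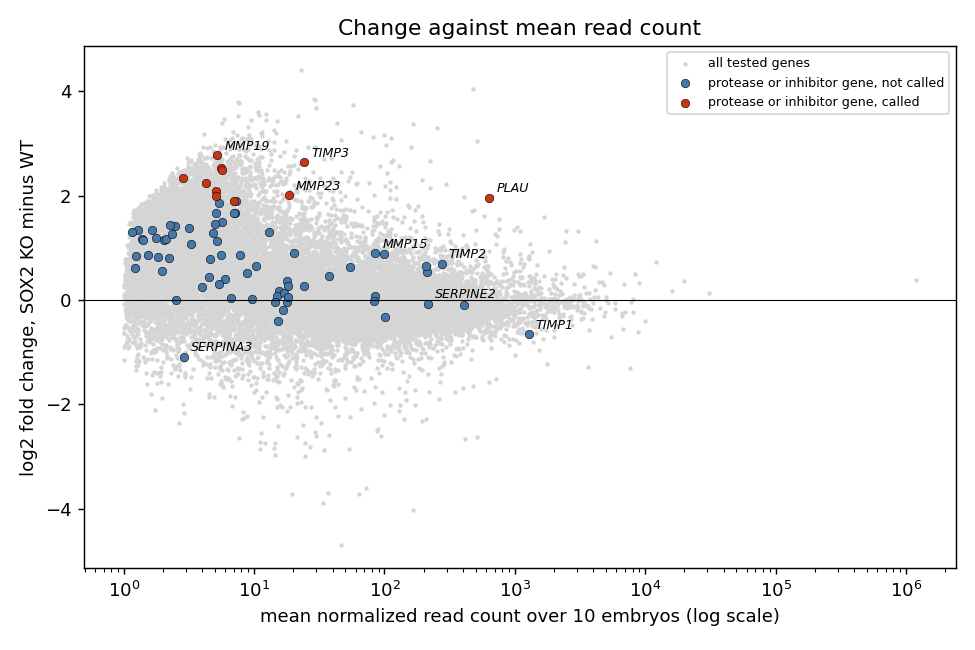
Log2 fold change (y axis, *SOX2* KO minus WT) against the mean normalized read count over the 10 embryos (x axis, log scale) for all tested genes (grey) and for the protease and inhibitor genes, not called (blue) or called (red). *PLAU*, at a mean of 635, is the called gene farthest to the right, and 8 of the 11 called genes lie at a mean under 10.

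The number of called genes depended on single embryos and on the 18S rRNA share. It ranged from 6 to 20 when 1 embryo was left out in turn, was 5 with quantile normalization, which also called *SERPINA3* lower, and was 2 (*PLAU* and *TIMP3*) with the *RN18S1* share of each embryo as a covariate. Without ko4 it was 20 and without nc3 18, while without nc1, ko1 or ko5 it was 6 and without nc2 or ko3 it was 7. Embryo ko4 was the lowest *SOX2* KO embryo for 7 of the 11 called genes, beside 53.9% of the 1792 genes called higher overall. Embryo ko1 was the highest for 5 of the 11 and ko5 for 4, beside 47.4% and 29.9% of those 1792 genes, so these counts are near the background. The part of the *RN18S1* share in these results was not tested beyond that covariate.

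Markers of cells other than the embryo were examined too. Of 4 fibroblast markers 3 were called higher (*COL1A1*, *COL1A2* and *DCN*), beside 8.93% of all tested genes. The summed level of the 4 was 63.7 to 102 in WT and between 113 and 249 in *SOX2* KO embryos. *LUM*, the other fibroblast marker, was at 1.53 to 5.93 in WT and at 0 to 3.96 in *SOX2* KO embryos. Of 3 blood and immune markers *PTPRC* was called higher, beside 14.1% of all tested genes with a mean under 10, where it lies. *PTPRC* was at 0 to 0.994 in WT and at 1.32 to 12.2 in *SOX2* KO embryos, and *CD3E* was at 0 in at least 1 embryo of each group. The summed level of the 3 was 1.48 to 13.6 in WT and between 2.64 and 31.2 in *SOX2* KO embryos. Of 7 cumulus and granulosa markers limma called 0, with 1 higher at an unadjusted p under 0.05 and 0 called by DESeq2 or edgeR, and their summed level was 31.1 to 85.5 in WT and between 57.0 and 98.0 in *SOX2* KO embryos. The part of such cells in the results on proteases was not tested.

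In the plasminogen system, the activator *PLAU* was 3.18-fold higher in *SOX2* KO embryos while its receptor and the inhibitor *SERPINE2* did not pass the test. *PLAU*, the gene of urokinase, had normalized read counts of 146, 116, 167, 427 and 663 in nc1 to nc5 and of 939.7, 784, 973, 725 and 1408 in ko1 to ko5. Every *SOX2* KO embryo was above every WT embryo, and among WT embryos nc4 and nc5 stood above the other 3. The means were 304 ± 236 in WT and 966 ± 268 in *SOX2* KO embryos (SD, n = 5 each), and the log2 fold change was 1.96 (SE 0.34, limma adjusted p = 0.00139). It stayed between 1.70 and 2.33 whichever embryo was left out and was called in every alternative that was run. *PLAU* alone had 2110 reads in WT and 4379 in *SOX2* KO embryos, so counting error is small beside the spread between embryos.

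*PLAT*, the tissue-type activator, had few reads, with 2.29, 4.45, 2.98, 8.55 and 4.13 in WT and 15.6, 9.24, 4.65, 0.821 and 6.92 in *SOX2* KO embryos. The groups overlapped, and the log2 fold change was 0.40 (95% interval -0.82 to 1.61, limma adjusted p = 0.669). *PLAUR*, which holds urokinase at the cell surface, was at 5.34, 5.93, 3.98, 0 and 6.49 in WT and at 5.57, 11.9, 3.49, 0 and 11.5 in *SOX2* KO embryos. nc4 and ko4 had no read of it, and its log2 fold change was 0.31 (95% interval -1.17 to 1.79, limma adjusted p = 0.798). *SERPINE2* (protease nexin-1), which blocks thrombin and urokinase, was at 205, 187, 209.8, 225 and 277 in WT and at 184, 242, 162, 245 and 220.2 in *SOX2* KO embryos. The ranges lay over each other, and the interval of its log2 fold change, -0.073 (95% interval -0.42 to 0.28, limma adjusted p = 0.796), stays within a 2-fold change either way. *SERPINE3*, a related serpin, was at 5.57 at most in any embryo, with a log2 fold change of 1.15 (SE 0.53, limma adjusted p = 0.139). Limma, DESeq2 and edgeR called neither *SERPINE2* nor *SERPINE3*, and *SERPINE3* was higher at an unadjusted p under 0.05, beside 24.0% of all tested genes.

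The substrate and the uptake receptors of the system were examined beside them. *PLG*, the gene of plasminogen itself, was at 0 to 5.93 in WT and at 2.33 to 7.79 in *SOX2* KO embryos, with 9 and 21 reads in all, and its log2 fold change was 1.13 (SE 0.59, limma adjusted p = 0.189). *LRP1*, an endocytic receptor that takes up proteases bound to their inhibitors, had 14.5, 20.8, 23.9, 28.8 and 30.7 in WT and 75.7, 66, 82.6, 44.4 and 92.2 in *SOX2* KO embryos. *LRP2* (megalin), a related receptor, had 3206, 2775, 2499, 2092 and 2669 in WT and 5621, 5155, 5519, 5269.6 and 7431 in *SOX2* KO embryos. Both receptors were higher in every *SOX2* KO embryo than in any WT embryo. The log2 fold change was 1.57 (SE 0.27, limma adjusted p = 0.00126) for *LRP1* and 1.13 (SE 0.18, limma adjusted p = 0.000624) for *LRP2*. *ANXA2*, *S100A10* and *ENO1*, whose products can hold plasminogen at the surface, had log2 fold changes of 0.29, 0.040 and 0.47, none of which passed (limma adjusted p = 0.298, 0.91 and 0.131), and that of *S100A10* turned its sign in other fits.

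**Figure D3:**
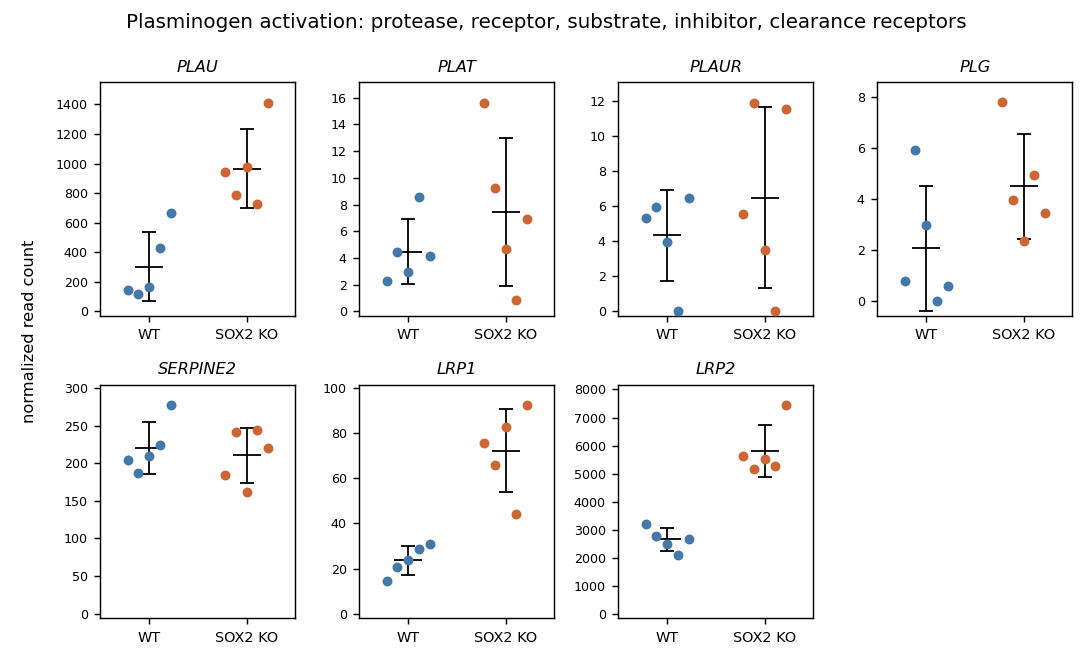
Normalized read counts (y axis, linear, own scale per panel) of *PLAU*, *PLAT*, *PLAUR*, *PLG*, *SERPINE2*, *LRP1* and *LRP2* in the 5 WT (blue) and 5 *SOX2* KO embryos (orange), with the mean and SD as bars. *PLAU*, *LRP1* and *LRP2* do not overlap between the groups, and the other 4 do.

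Of 9 secreted MMPs, 2 were called higher, and both had few reads in WT. Both had a mean under 10, a level at which 14.1% of all tested genes were called higher. *MMP19*, a secreted MMP that cuts basement membrane proteins, had 1.53, 1.48, 0, 0 and 0 in WT and 16.7, 3.96, 10.5, 6.57 and 11.5 in *SOX2* KO embryos. It was read in nc1 and nc2 alone among WT, with 3 reads in all against 45 in *SOX2* KO, and the groups did not overlap. With the reads of each group divided by its summed size factors (the DESeq2 scaling behind the normalized read counts, not the total reads), the ratio was 19.5 (95% counting interval 6.25 to 98), which covers counting error only, since the reads carry no molecular identifiers. Its log2 fold change was 2.78 (SE 0.55, limma adjusted p = 0.00374), and a fitted value with so few WT reads depends on the added count of 1. *MMP2* (gelatinase A), which cuts type IV collagen, had 0, 0, 4.97, 0.777 and 2.95 in WT and 14.5, 10.6, 5.81, 2.46 and 9.22 in *SOX2* KO embryos. nc3 and nc5 lay within the range of the *SOX2* KO embryos. The log2 fold change was 2.0 (SE 0.62, limma adjusted p = 0.0377), and the call was lost without any 1 of nc1, nc2, nc4, ko1, ko2, ko3 and ko5 (limma adjusted p up to 0.0969), and by DESeq2 and edgeR.

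The other 7 secreted MMPs did not pass. *MMP9* (gelatinase B) had 4.58, 1.48, 9.94, 3.11 and 11.8 in WT and 15.6, 3.96, 2.33, 1.64 and 11.5 in *SOX2* KO embryos, with a log2 fold change of 0.037 (95% interval -1.25 to 1.32, limma adjusted p = 0.975). *MMP12*, the macrophage elastase, had the most reads of the class, and nc3, at 212, stood above the other 9 embryos at 40.4 to 141. *MMP11* (stromelysin-3) was at 2.95 to 26.8 in WT and at 10.6 to 18.9 in *SOX2* KO embryos. *MMP28* (epilysin) was at 11.9 to 26.4 in WT and at 10.4 to 24.4 in *SOX2* KO embryos. Their log2 fold changes were 0.075, 0.069 and 0.26 (limma adjusted p = 0.905, 0.937 and 0.643). The collagenase *MMP1* had 3 reads in WT and 9 in *SOX2* KO embryos, too few for a difference to be read at this depth. *MMP3* and *MMP8* likewise had means under 3 in either group.

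Of 6 membrane-bound MMPs, *MMP23* was called higher, beside 8.93% of all tested genes, and *MMP15* passed the adjusted p alone. *MMP23*, which is anchored by its N-terminal end and released by furin-like cutting, had 6.11, 2.97, 4.97, 8.55 and 11.8 in WT and 17.8, 27.7, 40.7, 21.4 and 41.5 in *SOX2* KO embryos. The lowest *SOX2* KO embryo, at 17.8, was above the highest WT embryo, at 11.8. Its means were 6.88 ± 3.41 in WT and 29.8 ± 10.9 in *SOX2* KO embryos (SD, n = 5 each), a 4.34-fold difference, and the log2 fold change was 2.0 (SE 0.41, limma adjusted p = 0.00463). *MMP15* (MT2-MMP), a transmembrane MMP that opens the precursor of MMP2, had 65.6, 47.5, 80.5, 53.6 and 47.8 in WT and 93.5, 83.2, 144, 100.2 and 134 in *SOX2* KO embryos. The groups did not overlap, with 80.5 the highest WT and 83.2 the lowest *SOX2* KO value. At 1.88-fold, with a log2 fold change of 0.90 (SE 0.22, limma adjusted p = 0.0118), it stayed under the fold threshold except without nc3 (1.02, limma adjusted p = 0.00623). *MMP14* (MT1-MMP), the best known activator of the MMP2 precursor, had 13.7, 25.2, 23.9, 13.2 and 5.31 in WT and 15.6, 30.4, 20.9, 18.1 and 12.7 in *SOX2* KO embryos. Its groups overlapped, and the log2 fold change was 0.36 (95% interval -0.50 to 1.21, limma adjusted p = 0.57). *MMP17*, *MMP24* and *MMP25* did not pass, with log2 fold changes of 0.78, 1.16 and -0.41.

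The 4 TIMPs, which block MMPs in the extracellular space, differed from each other. *TIMP3*, the one that binds the matrix and also blocks ADAM17, had 2.29, 2.97, 10.9, 6.99 and 8.85 in WT and 33.4, 51.5, 57, 24.6 and 42.7 in *SOX2* KO embryos. All 5 *SOX2* KO embryos were above 10.9, the highest WT value. The means were 6.41 ± 3.73 in WT and 41.8 ± 13.1 in *SOX2* KO embryos (SD, n = 5 each), a 6.53-fold difference, and the log2 fold change was 2.64 (SE 0.42, limma adjusted p = 0.000593). It lay between 2.39 and 2.86 whichever embryo was left out, and *TIMP3*, like *PLAU*, was called in every alternative that was run. *SYN3*, which overlaps *TIMP3* in the RefSeq annotation, was at 1.55 to 27.8 in WT and at 9.86 to 28.8 in *SOX2* KO embryos, with a log2 fold change of 0.99 (SE 0.56, limma adjusted p = 0.23).

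*TIMP2*, which blocks MMP2 and also takes part in its activation, had 252, 123, 273, 176 and 234 in WT and 413, 353, 356, 219 and 347 in *SOX2* KO embryos. Only ko4 lay within the WT range, and the difference was 1.59-fold, with a log2 fold change of 0.70 (SE 0.21, limma adjusted p = 0.0349). *TIMP1*, with the most reads of the 78 genes, had 1614, 1119.7, 1641, 1329.5 and 1526 in WT and 985, 1209.6, 1227, 228 and 1889 in *SOX2* KO embryos. ko4 stood far under the other 9 embryos, and its *SYN1* value, a gene that overlaps *TIMP1* in RefSeq, was 1.64 against 28.2 to 65.6 in the others. The log2 fold change of *TIMP1* was -0.65 (95% interval -1.39 to 0.091, limma adjusted p = 0.21), and without ko4 it was -0.15 (limma adjusted p = 0.568). *TIMP4* was at 1.53, 4.45, 5.97, 0 and 7.08 in WT and at 13.4, 3.96, 2.33, 1.64 and 4.61 in *SOX2* KO embryos, with a log2 fold change of 0.44 (95% interval -0.90 to 1.77, limma adjusted p = 0.668). *TIMP2* no longer passed the adjusted p without any 1 of nc2, nc4, ko1, ko2, ko3 and ko5 (limma adjusted p up to 0.0991), with edgeR, with equal totals, where a mean of at least 10 was required or with the *RN18S1* share as covariate. Of the TIMPs only *TIMP3* passed both the adjusted p and the fold threshold.

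ADAMs are membrane proteins of which many cut growth factors and receptors off the cell surface. Of 17 ADAMs 1 was called higher (5.88%), beside 8.93% of all tested genes. This was *ADAM23*, a member without protease activity that binds integrins, with 0, 0, 3.98, 0.777 and 0 in WT and 13.4, 2.64, 9.3, 2.46 and 10.4 in *SOX2* KO embryos. nc3 lay above ko2 and ko4, and the other 4 WT embryos had at most 1 read. The log2 fold change was 2.25 (SE 0.62, limma adjusted p = 0.022), and the call was lost without any 1 of nc1, nc2, nc5, ko1, ko3 and ko5 (limma adjusted p up to 0.0643). The sheddase *ADAM10*, which cuts Notch receptors, had 533, 458, 367, 382 and 382 in WT and 383, 371, 384, 358 and 479 in *SOX2* KO embryos. *ADAM17* (TACE), which releases TNF and ligands of the EGF receptor, had 89.3, 96.4, 79.5, 62.2 and 93.8 in WT and 75.7, 71.3, 80.2, 109 and 77.3 in *SOX2* KO embryos. For both sheddases the groups lay over each other. Their log2 fold changes were -0.10 (95% interval -0.41 to 0.22, limma adjusted p = 0.691) and -0.025 (95% interval -0.43 to 0.38, limma adjusted p = 0.945), so changes as large as 2-fold lie outside both intervals.

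*ADAM9*, another sheddase, had 134, 139, 95.5, 230.0 and 205 in WT and 308, 383, 217, 145 and 226 in *SOX2* KO embryos, and its log2 fold change was 0.66 (SE 0.25, limma adjusted p = 0.0773). *ADAM19* (meltrin beta) had 35.9, 62.3, 42.8, 76.1 and 69.1 in WT and 252, 107, 52.3, 28.8 and 272 in *SOX2* KO embryos. Embryos ko1 and ko5 were far above all others, while ko3 and ko4 were within or under the WT range. Its log2 fold change was 0.88 (SE 0.44, limma adjusted p = 0.172), and without ko4 it was 1.33 and passed (limma adjusted p = 0.0165). The remaining 12 ADAMs had log2 fold changes between -0.042 (*ADAM20*) and 1.9 (*ADAM15*), and none passed in the limma test given above. Limma with sample weights or with 1 embryo left out called some of them, among them *ADAM15*, *ADAM18* and *ADAM33*. *ADAM15* came close (limma adjusted p = 0.0609) and was called by DESeq2 and by edgeR on the recovered reads. *ADAM18*, *ADAM20*, *ADAM21*, *ADAM29* and *ADAM32*, known mostly from testis, were at means under 5 in *SOX2* KO embryos except *ADAM20*, which was at 18.3 in WT and 17.4 in *SOX2* KO embryos.

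Of 18 ADAMTSs, secreted proteases that bind matrix and cut procollagens and proteoglycans, 4 were called higher (22.2%), beside 8.93% of all tested genes. All 4 had a mean under 10, a level at which 14.1% of all tested genes were called higher. *ADAMTS2*, which removes the N-propeptide of procollagen, had 3.82, 1.48, 3.98, 0 and 1.77 in WT and 18.9, 2.64, 16.3, 4.11 and 17.3 in *SOX2* KO embryos. ko1, ko3, ko4 and ko5 were above every WT embryo, ko4 by a small margin, and ko2 was not. *ADAMTS10*, which binds fibrillin, had 0, 0, 3.98, 0 and 0.59 in WT and 21.2, 13.2, 4.65, 0.821 and 12.7 in *SOX2* KO embryos. Here nc3 was the only WT embryo with more than 1 read, and ko4 with 1 read was at the level of WT. *ADAMTS15*, which cuts aggrecan and versican, had 0.763, 0, 0, 0 and 0 in WT and 6.68, 5.28, 4.65, 0.821 and 10.4 in *SOX2* KO embryos. This is 1 read in WT against 24 in *SOX2* KO, a ratio over the size factors of 31.2 (95% counting interval 5.08 to 1281), and ko4 also held a single read. *ADAMTS16* had 0.763, 1.48, 0, 0 and 0.59 in WT and 20, 2.64, 6.98, 2.46 and 20.8 in *SOX2* KO embryos, or 3 against 47 reads and a ratio of 20.3 (95% counting interval 6.55 to 102). The groups of *ADAMTS15* and *ADAMTS16* did not overlap, but the gap was narrow, and ko1 and ko5 carried most of the reads of *ADAMTS16*.

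The log2 fold changes were 1.89 (SE 0.62, limma adjusted p = 0.0471) for *ADAMTS2* and 2.49 (SE 0.68, limma adjusted p = 0.0218) for *ADAMTS10*. They were 2.33 (SE 0.56, limma adjusted p = 0.0111) for *ADAMTS15* and 2.54 (SE 0.62, limma adjusted p = 0.0123) for *ADAMTS16*. *ADAMTS15* and *ADAMTS16* kept their calls whichever embryo was left out. With the *RN18S1* share as covariate *ADAMTS2*, *ADAMTS10*, *ADAMTS15* and *ADAMTS16* all lost the call, and with quantile normalization all but *ADAMTS16* did. A pseudocount of 5 took *ADAMTS15* (0.97) under the fold threshold. *ADAMTS2* lost its call without any 1 of nc1, nc2, nc4, nc5, ko1, ko3 and ko5 (limma adjusted p up to 0.128), and *ADAMTS10* without any 1 of nc1, nc2, nc4, ko1 and ko5 (up to 0.065). *ADAMTS20* had 1.53, 0, 0.994, 0 and 1.18 in WT and 7.79, 2.64, 2.33, 1.64 and 4.61 in *SOX2* KO embryos without overlap, and its log2 fold change of 1.43 (SE 0.54, limma adjusted p = 0.0781) did not pass. *ADAMTS7*, which cuts the cartilage protein COMP, had the most reads of the family, at 27.2 to 79.5 in WT and at 43.5 to 76.7 in *SOX2* KO embryos, with a log2 fold change of 0.63 (SE 0.27, limma adjusted p = 0.118). *ADAMTS1*, which cuts versican and aggrecan, was at 4.58, 13.3, 9.94, 10.9 and 33.1 in WT and 31.2, 6.6, 23.3, 5.75 and 6.92 in *SOX2* KO embryos. *ADAMTS3*, which cuts procollagen like *ADAMTS2*, was at 16, 32.6, 3.98, 9.32 and 28.9 in WT and 28.9, 7.92, 17.4, 4.93 and 15 in *SOX2* KO embryos. Neither passed, with log2 fold changes of -0.032 (95% interval -1.14 to 1.08, limma adjusted p = 0.975) and -0.18 (95% interval -1.29 to 0.92, limma adjusted p = 0.843). The other 10 members had log2 fold changes between 0.021 (*ADAMTS18*) and 1.68 (*ADAMTS14*) and were not called in the limma test given above or by edgeR. DESeq2 called 1 of them, *ADAMTS13*. Limma with sample weights called *ADAMTS13* and *ADAMTS14*, without ko4 *ADAMTS12* and *ADAMTS14*, and without nc3 *ADAMTS14*.

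**Figure D4:**
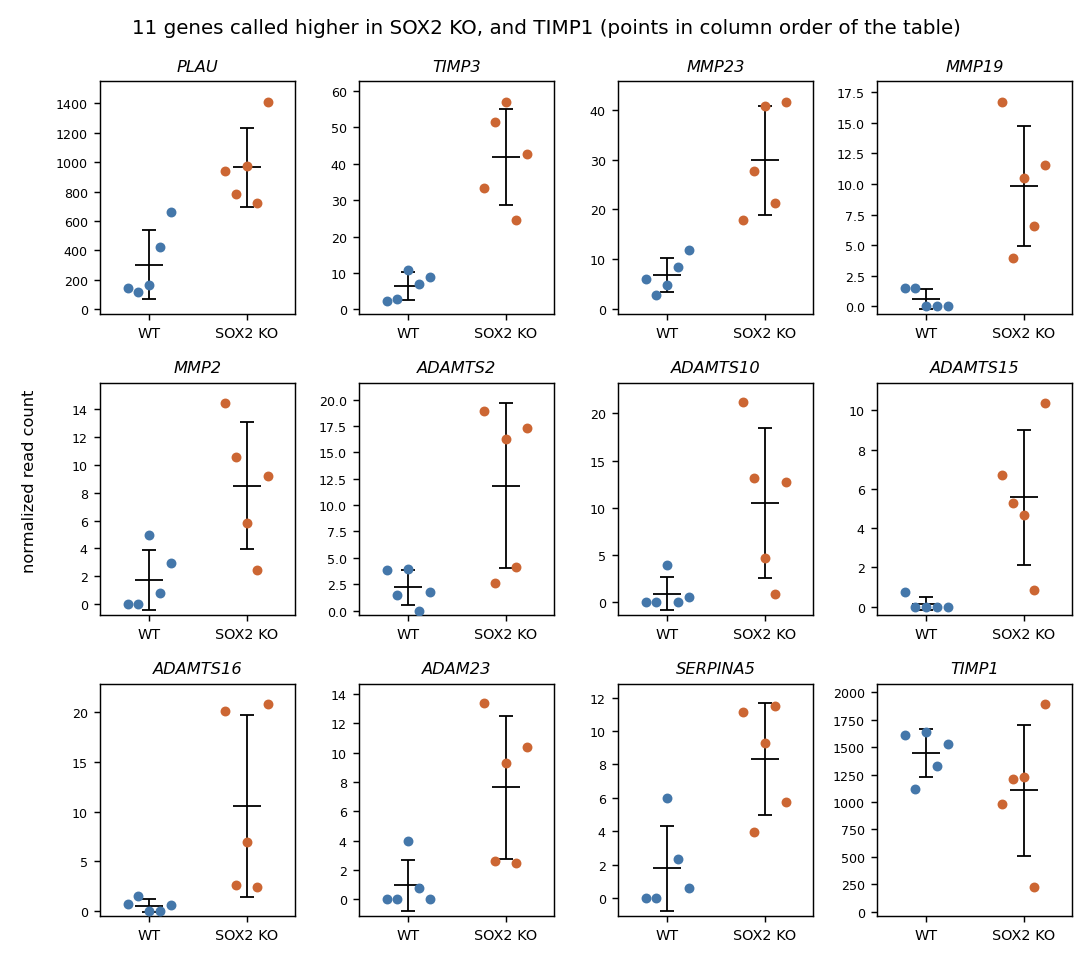
Normalized read counts (y axis, linear, own scale per panel) of the 11 called genes and of *TIMP1* in each WT (blue) and *SOX2* KO embryo (orange), with the mean and SD as bars and points in the column order of the table. *PLAU*, *TIMP3*, *MMP23*, *MMP19*, *ADAMTS15* and *ADAMTS16* show no overlap, and *TIMP1* shows ko4 alone at 228.

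Of the 21 serpins limma called *SERPINA5* alone, beside 8.93% of all tested genes called higher. *SERPINA5* (protein C inhibitor), which blocks activated protein C and urokinase, had 0, 0, 5.97, 2.33 and 0.59 in WT and 11.1, 3.96, 9.3, 11.5 and 5.77 in *SOX2* KO embryos. nc3 lay above ko2 and ko5, and nc1 and nc2 had no read. The log2 fold change was 2.09 (SE 0.60, limma adjusted p = 0.0272), and the call was lost without any 1 of nc1, nc2, nc5, ko1, ko3 and ko5 (limma adjusted p up to 0.0732) and with edgeR. *SERPINA3* (alpha-1-antichymotrypsin), whose estimate was the lowest of the 78 genes, had 1.53, 5.93, 1.99, 1.55 and 8.85 in WT and 4.45, 0, 0, 0 and 4.61 in *SOX2* KO embryos. ko2, ko3 and ko4 had no read of it, ko1 and ko5 lay within the WT range, and its log2 fold change was -1.09 (95% interval -2.45 to 0.28, limma adjusted p = 0.257). With quantile normalization it was called lower (-1.79, limma adjusted p = 0.0273). *SERPINA10*, which blocks factor Xa, and *SERPINA11* had 2 and 3 reads in WT. *SERPINA7*, the thyroxine carrier, had 1 read in WT and 10 in *SOX2* KO embryos, and its log2 fold change was 1.31 (SE 0.54, limma adjusted p = 0.103).

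The clade B serpins act mostly inside cells, and limma, DESeq2 and edgeR called 0 of 6, with 2 higher at an unadjusted p under 0.05. *SERPINB6*, which blocks cathepsin G and trypsin-like proteases, had 173, 136, 134, 234 and 191 in WT and 181, 213, 301, 276 and 292 in *SOX2* KO embryos. Its groups overlapped, and the log2 fold change was 0.54 (SE 0.19, limma adjusted p = 0.0609). *SERPINB5* (maspin), which does not block proteases, had 174, 35.6, 102, 156 and 113 in WT and 114, 70, 58.1, 116 and 66.9 in *SOX2* KO embryos, with a log2 fold change of -0.33 (95% interval -1.0 to 0.35, limma adjusted p = 0.505). *SERPINB8* was at 16.9 to 41.2 in WT and at 31.7 to 62.8 in *SOX2* KO embryos (log2 fold change 0.46 (SE 0.29, limma adjusted p = 0.273)). *SERPINB2*, an inhibitor of urokinase, was listed at 0 in all 5 WT embryos and in ko2, ko3 and ko4, and had 4.45 in ko1 and 9.22 in ko5.

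Limma called 0 of the 7 serpins of the other clades, with 1 higher at an unadjusted p under 0.05. That one was *SERPING1* (C1 inhibitor), which blocks complement C1 and kallikrein and was at 0.763, 2.97, 3.98, 2.33 and 2.36 in WT and at 13.4, 7.92, 6.98, 3.29 and 27.7 in *SOX2* KO embryos. ko4 was within the WT range and the other 4 were above it. Its log2 fold change was 1.67 (SE 0.56, limma adjusted p = 0.0507), and DESeq2 and edgeR called it. *SERPINH1* (HSP47), a collagen chaperone and not an inhibitor, had 12.2, 5.93, 45.7, 6.99 and 7.67 in WT and 47.9, 11.9, 18.6, 24.6 and 20.8 in *SOX2* KO embryos, and nc3 held nearly as much as ko1, the highest *SOX2* KO embryo. *SERPINC1* (antithrombin) was at 12.4 to 30.7 in WT and at 18.4 to 32.9 in *SOX2* KO embryos. Neither passed (log2 fold changes 0.91 (SE 0.49, limma adjusted p = 0.201) and 0.28 (SE 0.32, limma adjusted p = 0.58)).

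Seen over all 78 genes, the *SOX2* KO embryos had more of them detected, and the same held for all genes in the table. At least 1 read was found for 58 to 66 of the 78 genes per WT embryo and for 66 to 78 per *SOX2* KO embryo. Of all 20112 genes, 15919 to 18092 had a read in a WT embryo and 17987 to 19813 in a *SOX2* KO embryo. In ko1 and ko5 all 78 genes had a read, beside 19813 and 19561 of the 20112. No difference particular to the 78 genes is read from this. Of the 78 genes 20 had at most 3 reads in every WT embryo, which is at the floor of detection, and 3 of the 11 called genes are among them (*MMP19*, *ADAMTS15* and *ADAMTS16*). More than 3 reads in every embryo were found for 26. The summed normalized read counts of the protease families and activators were 1259 to 1821 in WT and between 1798 and 3222 in *SOX2* KO embryos. Without *PLAU* the sums were 1054 to 1240.0 in WT and between 1073 and 1915 in *SOX2* KO embryos, with ko4 the lowest *SOX2* KO embryo in either sum. The summed inhibitor families were 1698 to 2525 in WT and between 1268 and 3067 in *SOX2* KO embryos, and without *TIMP1*, which made up most of them in WT, they were 578 to 984 and 1040 to 1204. These sums weigh genes by their reads, which grow with transcript length as well as with level.

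Of 84 further genes of these pathways on a list, 73 were tested, and 14 were called higher and 1 was called lower. The 14 are 19.2% of the 73, beside 8.93% of all tested genes, but the list was made with earlier results known, so nothing is read from the higher share. DESeq2 called 12 of the 73 higher and edgeR 10. Among the plasminogen receptors *LRP1* and *LRP2* were called, as given above. Of 12 serine proteases, some bound to membranes and some secreted, 4 were called. Among them was *PRSS8* (prostasin), which acts in epithelia in a cascade with matriptase. *PRSS8* had 336, 251, 171, 333 and 247 in WT and 469, 493, 612, 537 and 505 in *SOX2* KO embryos without overlap, and its log2 fold change of 1.0 (SE 0.18, limma adjusted p = 0.00149) sat at the fold threshold. It fell under that threshold, to 0.85 at the lowest, without any 1 of nc2, nc3, nc5, ko3 and ko4, and also with DESeq2 (0.96), edgeR (0.86), equal totals (0.88), a pseudocount of 5 (0.99) and sample weights (0.95). *ST14*, the gene of matriptase, had 74, 90.5, 80.5, 76.9 and 79.1 in WT and 131, 144, 158, 105 and 247 in *SOX2* KO embryos, also without overlap. At 0.90 (SE 0.20, limma adjusted p = 0.00831) it passed the adjusted p but not the fold threshold, as did *PRSS22* (0.73, limma adjusted p = 0.0446) and *PRSS23* (0.75, limma adjusted p = 0.0274). Their inhibitors *SPINT1* and *SPINT2* (HAI-1 and HAI-2) did not pass, with log2 fold changes of 0.53 (95% interval 0.14 to 0.93, limma adjusted p = 0.0641) and -0.25 (95% interval -0.55 to 0.042, limma adjusted p = 0.221).

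*TMPRSS4* was at 46.6, 26.7, 74.6, 38.9 and 37.8 in WT and 160.3, 60.7, 81.4, 118 and 214 in *SOX2* KO embryos, with a log2 fold change of 1.42 (SE 0.31, limma adjusted p = 0.00654). *TMPRSS13* and *HTRA3* were called from 3 and 2 WT reads, *TMPRSS13* not without any 1 of nc1, nc2, nc4, nc5, ko1 and ko5 (limma adjusted p up to 0.10). *HTRA3*, a secreted serine protease of the placenta, had 0, 0, 1.99, 0 and 0 in WT and 13.4, 15.8, 6.98, 4.11 and 8.07 in *SOX2* KO embryos, a ratio over the size factors of 27.3 (95% counting interval 7.09 to 232). The proprotein convertases *FURIN* and *PCSK5*, which open precursors of MMPs and ADAMs, were called as well. *FURIN* had 169, 68.2, 143, 193 and 81.5 in WT and 209, 267, 324, 273 and 329.8 in *SOX2* KO embryos, with a log2 fold change of 1.19 (SE 0.24, limma adjusted p = 0.00455). *PCSK5* had 53.4, 68.2, 80.5, 59.8 and 48.4 in WT and 224, 168, 166, 85.4 and 142 in *SOX2* KO embryos, with a log2 fold change of 1.28 (SE 0.23, limma adjusted p = 0.00172). For both convertases the lowest *SOX2* KO embryo was above the highest WT embryo. *FURIN* lost its call without nc2 (0.98, limma adjusted p = 0.011) and with edgeR (0.99, edgeR adjusted p = 0.0124), because the fold change fell under 2. With the *RN18S1* share as covariate *FURIN* and *PCSK5* both lost the call (0.76 and 1.05, limma adjusted p = 0.201 and 0.0818). The same loss was seen for most of the 14 related genes called higher, among them *LRP1*, *TMPRSS4* and *HTRA3*. Only 2 of them, *LRP2* and *PRSS8*, kept the call in that fit.

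The gene called lower was *PCOLCE*, whose product speeds the removal of the C-propeptide of procollagen by BMP1-type proteases. It had 101, 83, 81.5, 92.5 and 96.8 in WT and 18.9, 42.3, 30.2, 39.4 and 31.1 in *SOX2* KO embryos. All *SOX2* KO embryos were under all WT embryos by a wide gap, and the log2 fold change was -1.51 (SE 0.23, limma adjusted p = 0.00051). *TLL1*, one of the proteases it helps, was at 0.777 to 10 in WT and at 12.8 to 17.8 in *SOX2* KO embryos (log2 fold change 1.77 (SE 0.52, limma adjusted p = 0.0313)). *ASTL* (ovastacin), which cuts a zona pellucida protein after fertilization, was at 0 to 1.99 in WT and at 2.64 to 17.8 in *SOX2* KO embryos (log2 fold change 2.17 (SE 0.56, limma adjusted p = 0.0166)). *TLL1* lost its call without any 1 of nc2, nc4, ko1, ko3 and ko5 (limma adjusted p up to 0.0786), with edgeR (adjusted p = 0.0864) and with quantile normalization (limma adjusted p = 0.13). Of 16 partners of ADAMs and MMPs 4 were called higher (25%), beside 8.93% of all tested genes. They were the tetraspanin *TSPAN33* and the ADAMTS-like genes *ADAMTSL1*, *ADAMTSL3* and *ADAMTSL5*, which carry no protease domain. Their log2 fold changes were 2.05, 2.22, 2.52 and 1.65 (limma adjusted p = 0.0199, 0.0192, 0.00906 and 0.00636). *TSPAN33* lost its call without nc1 or ko5 and *ADAMTSL1* without nc1, ko1 or ko5 (limma adjusted p of 0.0601 at most for either), and *TSPAN33* also with DESeq2 (adjusted p = 0.0503) and edgeR (adjusted p = 0.0762). *BSG* (basigin), which induces MMPs in neighbouring cells, did not pass (0.31 (95% interval -0.060 to 0.67, limma adjusted p = 0.234)). Limma, DESeq2 and edgeR called 0 of the 8 Kunitz and Kazal inhibitors, 0 of the 8 cystatins and other inhibitors and 0 of the 6 ligands released by ADAMs, with 3, 2 and 2 higher and 0, 1 and 0 lower at an unadjusted p under 0.05. The one lower was *CSTB* (cystatin B), an inhibitor of cathepsins, with a log2 fold change of -0.55 (SE 0.18, limma adjusted p = 0.0511).

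**Figure D5:**
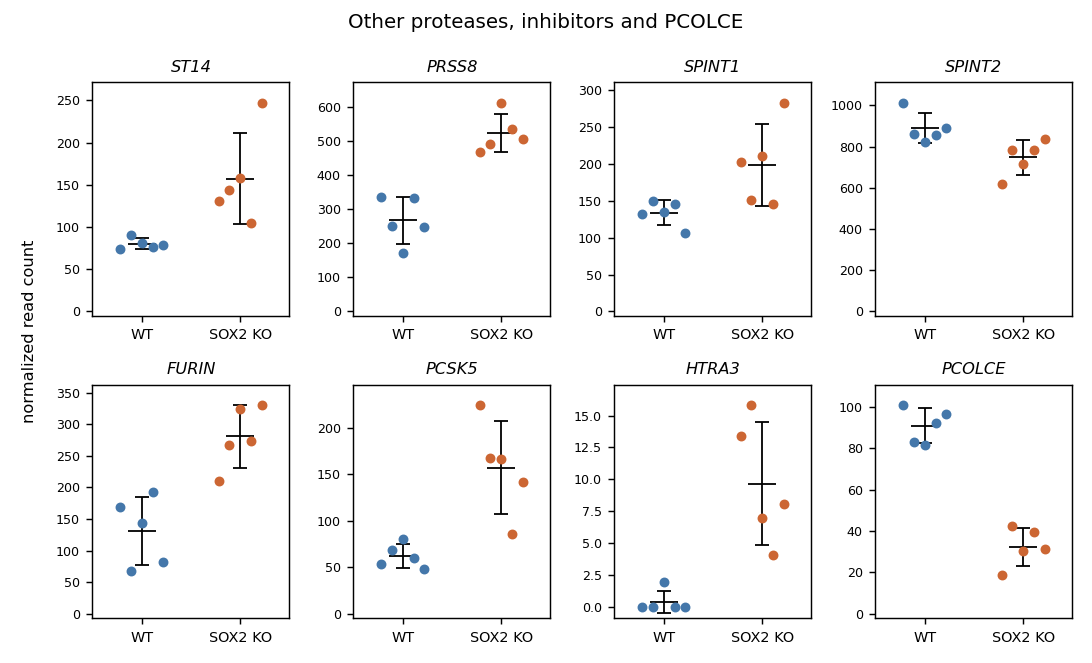
Normalized read counts (y axis, linear, own scale per panel) of *ST14*, *PRSS8*, *SPINT1*, *SPINT2*, *FURIN*, *PCSK5*, *HTRA3* and *PCOLCE* in each WT (blue) and *SOX2* KO embryo (orange), with the mean and SD as bars. *PCOLCE* is the panel in which all *SOX2* KO embryos lie under all WT embryos, and *SPINT1* and *SPINT2* overlap.

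Some of these genes lie beside or over others, and strand was not stated for the counting. In RefSeq 28 of the 78 genes overlap another annotated gene, 14 of them one that is in the table, so reads could be shared. *CEP295NL* overlaps *TIMP2*, *SYN2* overlaps *TIMP4* and *RBM23* overlaps *MMP14*. Of these genes 6 pairs stand next to each other among protein-coding genes, *MMP12* with *MMP3*, *MMP3* with *MMP1*, *ADAM9* with *ADAM32*, *ADAM21* with *ADAM20*, *SERPINB9* with *SERPINB1* and *ADAMTS8* with *ADAMTS15*. In no pair were both genes called.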

How the data were processed

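Libraries of single embryos were made with Smart-seq2, which copies polyadenylated RNA and amplifies it without molecular identifiers. The authors used Trimmomatic on the paired-end 150 bp reads, HISAT2 for alignment to ARS-UCD1.2 and featureCounts for counting. The deposited values are a signal, the reads of a gene over the embryo's size factor from DESeq2. Annotation release, strand setting and treatment of reads that map to several places are not given in the sources used here, so paralogs and overlapping genes could share reads. Within each embryo the 201120 values are multiples of a single step (tolerance 0.01 reads), which gave back the reads, 2223670 to 5134855 per embryo. The table lists genes from 11 reads over all embryos upwards.

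Log2(normalized read count + 1) of the 20056 genes that reached a mean of 1 was fitted with limma 3.58.1 (trend, no covariate) on 5 WT and 5 *SOX2* KO embryos in R 4.3.3. On simulated counts with 200 genes changed 4-fold it recovered 92.0% with 17 false calls among 19442 genes. The changed genes were all drawn from those with a mean of at least 10. The recovery therefore gives no figure for genes with a mean under 10, where most of the called protease and inhibitor genes lie. Alternatives were other pseudocounts, scalings and filters, sample weights, the *RN18S1* share as covariate, DESeq2 1.42.0, edgeR 4.0.16 (quasi-likelihood) and each embryo left out. Nothing in the sources says which embryos shared a fertilization batch, so p-values measure the spread between these embryos.

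The genes and lists were chosen with earlier results of these data known. Named are genes that were called or did not overlap, the 3 with the most reads per class, a list of well-known members, and the lowest ones, and of related genes those called or with the most reads. *ST14*, *PRSS22*, *PRSS23*, *SPINT1*, *SPINT2*, *PLG*, *CSTB*, *ADAM15*, *SERPING1*, *SERPINB2* and other genes given by value were added after the values were seen. Names were matched to RefSeq (ARS-UCD2.0, 78 of 78). 1 of the 78 genes is counted but not reported by name here. Promoter and protein sequences were not analysed here.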

Additional observations from a re-analysis of the deposited data

Results flagged for a closer look

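Within each group of 5 embryos, 1 embryo stood apart from the other 4 in 14 of 124 groups examined (62 genes named by rule, each in WT and in *SOX2* KO). A gap over 0.710 of the group's range counted. For normally spread values chance alone picks out about 1 in 20, or 6.2. Where a group holds few reads, 1 read can pass the cut, so the 14 cannot be set against that number.

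In WT, nc3 was the high embryo for *ADAMTS10* at 3.98 (others 0 to 0.590), for *ADAM23* at 3.98 (0 to 0.777), for *SERPINH1* at 45.7 (5.93 to 12.2), for *MMP12* at 212 (40.4 to 70.2) and for *HTRA3* at 1.99 (all others 0). Embryo nc5 was high for *SERPINA7* at 0.590, with no read in the others, and it was low for *ASTL* at 0 (1.48 to 1.99 in the others). Embryo nc1 was high for *ADAMTS15* at 0.763, with no read in the others. The values of *ADAMTS15*, *SERPINA7* and *HTRA3* here are of 1 or 2 reads.

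In *SOX2* KO, ko5 was high for *ADAM10* at 479 (358 to 384) and for *LRP2* at 7431 (5155 to 5621). Embryo ko1 was high for *TIMP4* at 13.4 (1.64 to 4.61), ko2 for *ANXA2* at 6587 (4722 to 5149), ko3 for *CSTB* at 1636 (1111 to 1235) and ko4 for *ADAM17* at 109 (71.3 to 80.2).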

How the results depend on the processing

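Of the 11 genes called higher, *PLAU* and *TIMP3* were called in every alternative, and *MMP23*, *MMP19* and *ADAMTS16* in all but the one with the *RN18S1* share as covariate (*MMP19* and *ADAMTS16* do not reach a mean of 10 and were not tested where that mean was required). The count of genes called higher was 5 with quantile normalization, 3 where a mean of at least 10 was required, 2 with the *RN18S1* share as covariate and 19 with sample weights. It was 13 with DESeq2, 11 with edgeR and 6 to 20 with 1 embryo left out (20 without ko4, 18 without nc3, 7 without nc2 or ko3, 6 without nc1, ko1 or ko5). The count called lower was 0 except with quantile normalization, where it was 1. Of the related genes, 9, 2 and 25 were called higher with a mean of at least 10, the *RN18S1* share and sample weights, and 10 to 23 with 1 embryo left out, 23 without ko4. *LRP2* and *PCOLCE* were called in every alternative. The limit of a mean of 10 removes genes from the test, and the cause of the other changes was not tested.

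Over all tested genes the calls were 1792 higher and 232 lower (88.5% higher). The split was 629 and 447 (58.5%) with quantile normalization, 137 and 83 (62.3%) with the *RN18S1* share, 502 and 190 (72.5%) with a mean of at least 10 and 2081 and 641 (76.5%) without the fold threshold, while DESeq2 called 1836 and 238. The totals moved by over 1.5 times also with a pseudocount of 5 (1002 and 183) and with sample weights (3229 and 286), and fits without 1 embryo called from 771 higher (without ko5) to 3057 (without ko4). The median log2 fold change of all tested genes was 0.25, 0.14 with equal totals and -0.022 with quantile normalization, where that of the 78 genes was 0.86, 0.77 and 0.24. The median of the 78 was above that of all genes in each of these scalings, but these medians are not matched for level. Under a mean of 10, where 48 of the 78 genes lie, the medians without rescaling were 1.18 beside 0.93. Medians matched for level were not computed for the other scalings.

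Genes that were not called turned the sign of their log2 fold change in some fits. With quantile normalization it was -0.19 for *MMP1*, -0.30 for *SERPINA11*, -0.31 for *PLAT*, -0.045 for *MMP14*, -0.075 for *MMP28*, -0.45 for *PLAUR*, -0.40 for *TIMP4*, 0.0023 for *SERPINE2*, -0.33 for *MMP11* and -0.66 for *MMP9*. With scaling by the median log ratio of well-expressed genes (mean of 100 or more) it was 0.0064 for *ADAM10*, 0.030 for *SERPINE2*, 0.077 for *ADAM17* and 0.065 for *ADAMTS1*. With the *RN18S1* share as covariate it was -0.14 for *PLAUR*, 0.14 for *ADAMTS3*, 0.053 for *SERPINE2*, -0.66 for *MMP11*, -0.13 for *MMP12*, -0.55 for *MMP9*, 0.13 for *ADAM17* and 0.29 for *ADAMTS1*. With a pseudocount of 5 it was -0.0095 for *MMP11*. With scaling to equal totals it was -0.040 for *MMP11*, -0.046 for *MMP12*, -0.066 for *MMP9* and -0.083 for *S100A10*. With DESeq2 it was -0.20 for *MMP11*, -0.10 for *MMP12*, 0.017 for *ADAMTS1* and -0.021 for *S100A10*. With edgeR it was -0.30 for *MMP11*, -0.19 for *MMP12*, -0.0088 for *MMP9* and -0.12 for *S100A10*. With sample weights it was 0.20 for *ADAMTS1* and -0.0087 for *S100A10*. With 1 embryo left out the ranges were -0.13 to 0.027 for *ADAM17*, -0.37 to 0.32 for *ADAMTS1*, -0.59 to 0.12 for *ADAMTS3*, -0.39 to 0.32 for *MMP11*, -0.15 to 0.46 for *MMP12*, -0.32 to 0.34 for *MMP9*, -0.23 to 0.92 for *PLAUR*, -0.14 to 0.17 for *S100A10*, -0.13 to 0.017 for *SERPINE2* and -0.044 to 0.71 for *TIMP4*. None of these values passed the test.

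No paired analysis was possible because the *SOX2* KO columns carry no replicate number of the labels. Of the 78 genes 20 had no more than 3 reads in each WT embryo, and 3 of those 20 were called higher. In these 20 the reads in WT leave little room below them, so a lower level in *SOX2* KO was not detectable at this depth.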
